A study of Homo sapiens with 6 samples.

Results

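The transcripts of 10 immediate early transcription factors, the zinc finger factors EGR1, EGR2 and EGR3, the FOS family (FOS, FOSB, FOSL1 and FOSL2) and the JUN family (JUN, JUNB and JUND), were followed in TPC1 cells that overexpress TFCP2L1. They were picked by gene symbol, with earlier results of these data known, and are 10 of the 21173 genes in the count table. TPC1 cells come from a human papillary thyroid cancer with a RET gene fusion. RNA-seq libraries came from 3 samples of TPC1 cells with the genotype TFCP2L1 OE and 3 samples of TPC1 cells with a vector, whose genotype is given as WT. TFCP2L1 belongs to the CP2 branch of the grainyhead-like transcription factors. The labels name no promoter, dose, clone or culture time, nor whether each replicate was its own culture, so p-values measure the spread between these samples only, which may be technical.

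EGR and AP-1 factors are the early transcriptional output of growth factor and stress signalling. ERK phosphorylates ternary complex factors such as ELK1, which sit with SRF on CArG boxes and switch on EGR1 and FOS, while JNK phosphorylates JUN. JUN proteins pair with each other or with FOS proteins to form AP-1, which binds sites in many genes of invasion and inflammation. FOSL1, also called FRA-1, is known as the FOS family member that persistent RAS to ERK signalling sustains in carcinoma cells, and a RET fusion feeds that pathway.

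Library totals ran from 37928516 to 38987434 reads. TFCP2L1 itself had 13578, 13885 and 12333 reads in TFCP2L1 libraries and 0, 0 and 1 read in vector libraries, so the labels fit the overexpressed gene. The thyroid factor gene PAX8 was at 478 ± 47.4 CPM in TFCP2L1 cells and 544 ± 24.4 CPM in vector cells (SD, n = 3 each; CPM here is a read count scaled to a common library size by TMM). Epithelial genes were uneven: KRT18 was at 156 ± 8.68 CPM in TFCP2L1 cells and 165 ± 14.4 CPM in vector cells, KRT7 fell to 4.69 ± 1.16 CPM in TFCP2L1 cells, against 9.15 ± 0.992 CPM in vector cells (edgeR adjusted p = 0.00202), and CDH1 had at most 0.0266 CPM in the 6 libraries. The leukocyte gene PTPRC stayed at or under 0.186 CPM in every library. The summed fibroblast list was at 7.62 to 8.63 CPM in TFCP2L1 libraries and 9.64 to 10.5 CPM in vector libraries. Within it COL1A1 was at 3.69 ± 0.400 CPM in TFCP2L1 cells and 5.02 ± 0.327 CPM in vector cells (SD, n = 3 each), and COL1A2 had no read in TFCP2L1 libraries and at most 0.0266 CPM in vector libraries. The part of these lists in the results was not tested. The summed leukocyte list was at 96.1 to 122 CPM in TFCP2L1 libraries and 63.8 to 75.8 CPM in vector libraries, nearly all of it CD68, which shares 81.7% of its exon bases with another annotated gene on the same strand. In bulk RNA, a level change in all cells and a change in a fraction of the cells cannot be told apart.

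In TFCP2L1 cells EGR1 was 3.65-fold and FOSL1 1.33-fold higher than in vector cells, while the other 8 factors did not pass the test. All 10 had enough reads to be tested. By edgeR's quasi-likelihood test at an adjusted p under 0.05, 2 of the 10 were higher, against 4.63% of the 14431 genes tested, and 0 of the 10 were lower, against 6.94%. At an unadjusted edgeR p under 0.05 the counts were 4 higher and 2 lower, against 11.8% and 13.3% of tested genes. DESeq2 called 3 higher and 0 lower, against 6.09% and 7.91% of the genes to which it gave an adjusted p. Groups were fully separated, library by library, for 3 factors that were higher (EGR1, FOSB and FOSL1), against 14.4% of tested genes, and for 1 that was lower (FOSL2), against 15.6%. The median log2 fold change was 0.38 over the 10 factors and 0.00 over all tested genes.

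**Figure D1:**
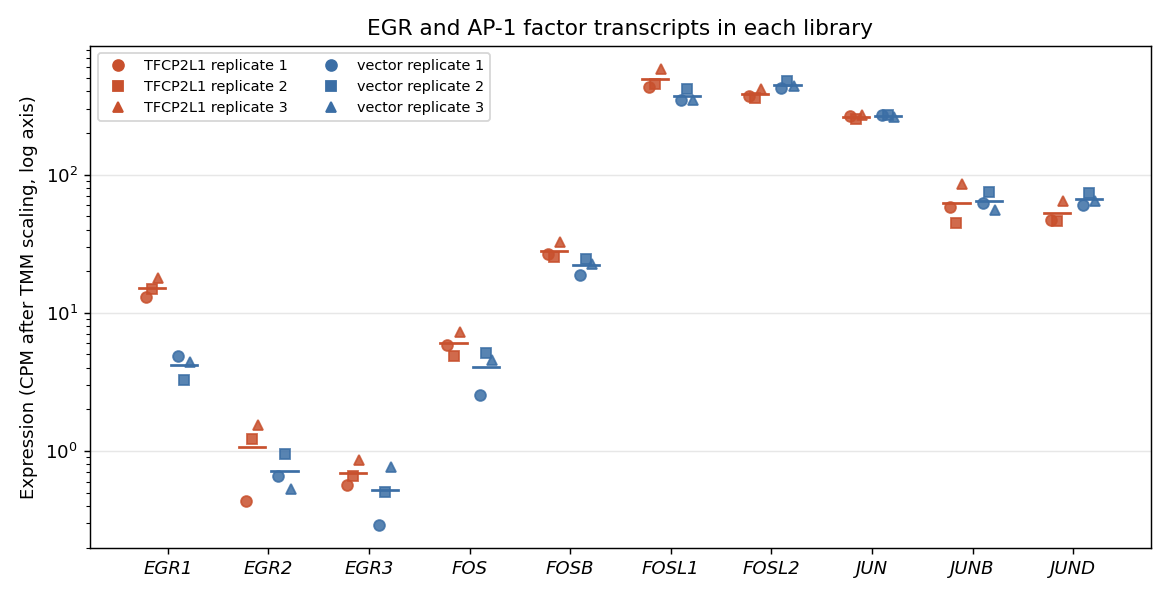
Expression of the 10 factors in each library as CPM after TMM scaling on a log axis; orange symbols are the 3 TFCP2L1 libraries, blue symbols the 3 vector libraries, and horizontal lines the group means. EGR1 sits between 13 and 17.8 CPM in TFCP2L1 libraries and between 3.24 and 4.86 CPM in vector libraries, and the groups of JUN lie on top of each other.

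EGR1 encodes a zinc finger activator that growth factors induce within minutes through SRF. It had 13, 14.8 and 17.8 CPM in TFCP2L1 libraries, against 4.86, 3.24 and 4.4 CPM in vector libraries, from 509, 581 and 682 reads in TFCP2L1 libraries and 183, 122 and 167 reads in vector libraries. Every TFCP2L1 library was above every vector library, and the lowest of the one group stood well clear of the highest of the other. The log2 fold change was 1.87 ± 0.17 (SE), a 3.65-fold higher level with a 95% interval of 2.85 to 4.68, with an edgeR adjusted p of 1.57e-06. By exact permutation over the 6 libraries, two-sided, p was 0.1, below which 3 against 3 cannot go. EGR1 was called under all 17 alternatives, with a log2 fold change of 1.35 to 1.99. It ranked 14 among the 637 genes that were called higher and had a mean of at least 2 CPM. No other annotated gene overlaps the exons of EGR1 (ENSG00000120738.7, GRCh38 chromosome 5, 138465490 to 138469315, plus strand).

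The stretch of 250 bases before the EGR1 start is shown because EGR1 had the largest change, and short windows of EGR2, FOS and JUND are set beside it because they hold motifs of the same kinds at genes that were not called. Sequences are from RefSeq on GRCh38.p14, where 8 of the 10 factors were read. FOSL1 had no entry, and EGR3 was not read because entries on its chromosome were left out. Motifs were searched on both strands in the 250 bases before the start: the CArG box, the AP-1 site TGACTCA, the EGR site GCGNGGGCG, the TATA box TATAAA, the cAMP response element (CRE) TGACGTCA and its core TGACG, which every full CRE also holds. Capitals mark CArG boxes, CRE cores and an EGR site in the EGR1 line, and the named motif in the others. The EGR1 stretch is chr5:138465229-138465478 on the plus strand.
EGR1: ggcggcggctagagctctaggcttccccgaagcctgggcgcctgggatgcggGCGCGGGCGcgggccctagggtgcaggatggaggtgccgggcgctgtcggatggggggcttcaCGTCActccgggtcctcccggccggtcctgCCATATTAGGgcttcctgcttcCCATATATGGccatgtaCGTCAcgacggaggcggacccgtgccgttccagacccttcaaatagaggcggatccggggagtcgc
The EGR2 window, chr10:62816418-62816447 on the minus strand, holds a CArG box.
EGR2: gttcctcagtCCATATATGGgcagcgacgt
The FOS window, chr14:75278754-75278783 on the plus strand, holds a CRE core.
FOS: gttgagcccgTGACGtttacactcattcat
The JUND window, chr19:18281803-18281832 on the minus strand, holds a full CRE.
JUND: gccgcccccaTGACGTCAacccacaaggca

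EGR1 held 2 CArG boxes, 105 to 96 and 83 to 74 bases before the start. Of 35116 promoter entries, 1.16% held a CArG box and 0.0313%, 11 entries, held more than 1. The CArG box of EGR2, in 1 of its 3 entries, has the same letters as the EGR1 box nearer the start. The other EGR2 entries held none of the motifs searched. The CRE core was in at least 1 entry of all 8 factors read and in 21.2% of all entries. The full CRE was in JUND only among the 8 and in 1.65% of entries. TATAAA was found in FOS, FOSB and JUNB (10.7% of entries), the EGR site in EGR1 (8.41%), and the AP-1 site in none of the 8 (4.2% of entries). A match describes the letters only, and no match says nothing of a factor outside these windows.

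EGR2 and EGR3, relatives of EGR1 that bind nearly the same site, were expressed close to the detection limit. EGR2 had 17, 48 and 59 reads in TFCP2L1 libraries and 25, 36 and 20 reads in vector libraries, or 0.436, 1.22 and 1.54 CPM against 0.664, 0.956 and 0.527 CPM. Its groups overlapped, and TFCP2L1 replicate 1 was the lowest of the 6 libraries. The log2 fold change was 0.57, with a 95% interval of -0.43 to 1.58 and an edgeR adjusted p of 0.501. EGR3 had 22, 26 and 33 reads in TFCP2L1 libraries and 11, 19 and 29 reads in vector libraries, also with overlap. Its log2 fold change was 0.42, with an interval of -0.60 to 1.44 and an edgeR adjusted p of 0.647. Both intervals hold lower levels in TFCP2L1 cells as well as higher ones, up to 2.99-fold for EGR2 and 2.71-fold for EGR3, so no direction was shown. Whether the 3 EGR genes changed by different amounts was not tested. For EGR3, 3.38% of the exon bases are shared with a gene on the opposite strand.

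**Figure D2:**
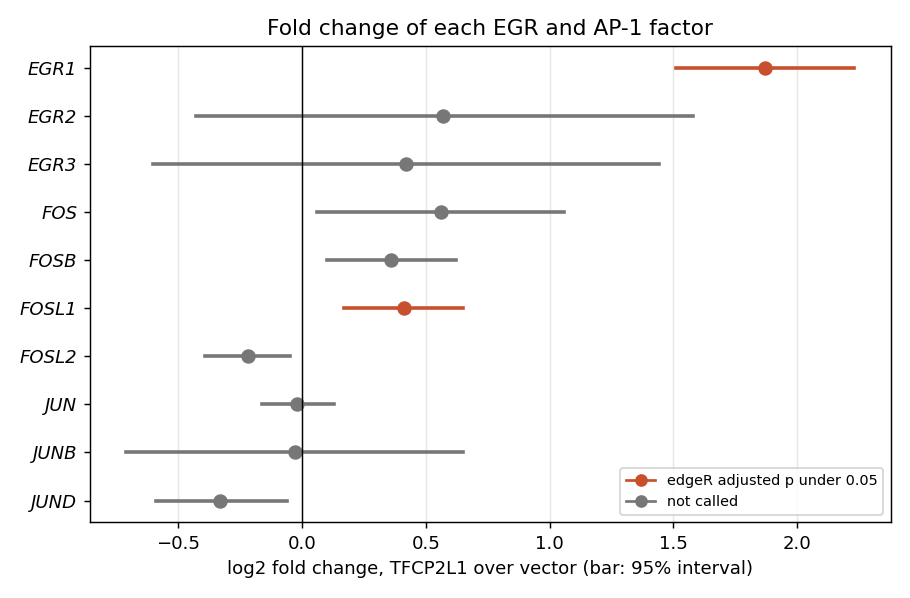
Log2 fold change of each factor, TFCP2L1 over vector, from edgeR's quasi-likelihood fit; points are estimates, bars the 95% interval of each gene, and orange marks an adjusted p under 0.05. EGR1 at 1.87 and FOSL1 at 0.41 are the called factors, and EGR2 and EGR3 have the widest intervals among the 10.

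FOSL1 was the most abundant of the 10 transcripts per length, as FPKM, and the only AP-1 subunit called. By CPM, which is not per length, FOSL2 was higher than FOSL1 in vector cells. FOSL1 had 433, 454 and 583 CPM in TFCP2L1 libraries, against 344, 417 and 348 CPM in vector libraries. The groups did not overlap, but vector replicate 2 came close to TFCP2L1 replicate 1, and TFCP2L1 replicate 3 stood above all other libraries. The log2 fold change was 0.41 ± 0.11 (SE), a 1.33-fold higher level with a 95% interval of 1.13 to 1.56, and edgeR's adjusted p was 0.0281. FOSL1 no longer passed when vector replicate 1 (edgeR adjusted p = 0.128) or vector replicate 3 (0.119) was left out. Nor did it pass with limma on log2 FPKM (adjusted p = 0.0803 with a pseudocount of 1 and 0.0748 with 0.1). With replicate number as a block in the fit, FOSL1 did not pass either (edgeR adjusted p = 0.0736). In GENCODE transcripts, 2.91% of the 50-base words of FOSL1 also occur in transcripts of other genes.

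FOSL2, the other FRA protein (FRA-2), had 373, 359 and 414 CPM in TFCP2L1 libraries and 420, 475 and 439 CPM in vector libraries. The groups did not overlap, and the highest TFCP2L1 library lay just under the lowest vector library. The log2 fold change was -0.22 ± 0.08 (SE), with an interval of -0.39 to -0.05, and edgeR's adjusted p of 0.0910 did not pass. Without TFCP2L1 replicate 3 it passed, at -0.28 with an edgeR adjusted p of 0.0211.

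FOS and FOSB, the classical early FOS genes that cells induce and shut off quickly, were at low levels. FOS had 5.89, 4.87 and 7.25 CPM in TFCP2L1 libraries and 2.55, 5.12 and 4.53 CPM in vector libraries. The groups overlapped, and vector replicate 1 was the lowest library. Its log2 fold change was 0.56 ± 0.23 (SE), with an interval of 0.06 to 1.06 and an edgeR adjusted p of 0.146. FOSB had 26.6, 25.4 and 32.6 CPM in TFCP2L1 libraries and 18.9, 24.6 and 22.5 CPM in vector libraries. These groups did not overlap, by a narrow margin. Its log2 fold change was 0.36 ± 0.12 (SE), with an interval of 0.10 to 0.62 and an edgeR adjusted p of 0.0703. FOSB passed in 4 of 17 alternatives, DESeq2 among them (adjusted p = 0.0444), and FOS in 1, without a filter on low counts (edgeR adjusted p = 0.0373). In that fit the edgeR adjusted p of EGR1 was also far smaller, 1.39e-30 against 1.57e-06, at the same log2 fold change of 1.87.

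JUN, a partner with which FOS proteins bind DNA, was the steadiest of the 10. It had 267, 252 and 270 CPM in TFCP2L1 libraries and 269, 270 and 259 CPM in vector libraries. The 6 values interleaved. On the log2 scale the difference was -0.02, with an interval of -0.16 to 0.13, or 0.892-fold to 1.10-fold, and edgeR's adjusted p was 0.928. Under library totals and the fits on FPKM, JUN was at 0.01.

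JUNB, which replaces JUN in some AP-1 dimers and restrains its growth-promoting action, had 57.9, 44.3 and 86.1 CPM in TFCP2L1 libraries and 61.9, 74.9 and 55.2 CPM in vector libraries. TFCP2L1 libraries held both the lowest and the highest of the 6 values. The log2 fold change was -0.03, with a wide interval of -0.71 to 0.65 and an edgeR adjusted p of 0.967, and the sign turned in 3 of the 6 fits that left out a library. HOOK2 covers 14.2% of the JUNB exon bases on the opposite strand, and no source used here says whether reads were counted by strand.

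JUND, the JUN family member found at steady levels in resting cells, had 47.2, 46.5 and 64.7 CPM in TFCP2L1 libraries and 60, 73.5 and 64.9 CPM in vector libraries. TFCP2L1 replicates 1 and 2 were below every vector library, and replicate 3 lay within the vector range. JUND's log2 fold change was -0.33 ± 0.12 (SE), with an interval of -0.59 to -0.06 and an edgeR adjusted p of 0.108. Without TFCP2L1 replicate 3 it was -0.50, with an edgeR adjusted p of 0.000411.

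In each group 1 library stood highest for most of the 10 factors. TFCP2L1 replicate 3 was the highest of its group for 10 of 10 factors, against 36.6% of all tested genes, and for 19 of 26 other immediate early genes. Vector replicate 2 was the highest of its group for 8 of 10 factors, the exceptions being EGR1 and EGR3, against 37.3% of tested genes, and for 16 of 26 other immediate early genes. The same libraries had the highest shares of reads from mitochondrially encoded genes, 7.59% in TFCP2L1 replicate 3 and 6.72% in vector replicate 2, against 5.13% to 5.80% in the other 4. Their part in these results was not tested. With both libraries left out, an alternative chosen after seeing the data, EGR1 was at 1.59 (edgeR adjusted p = 8.29e-07), FOSL1 at 0.36 (0.00561) and JUND at -0.41 (0.00522), and the other 7 factors were not called.

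**Figure D3:**
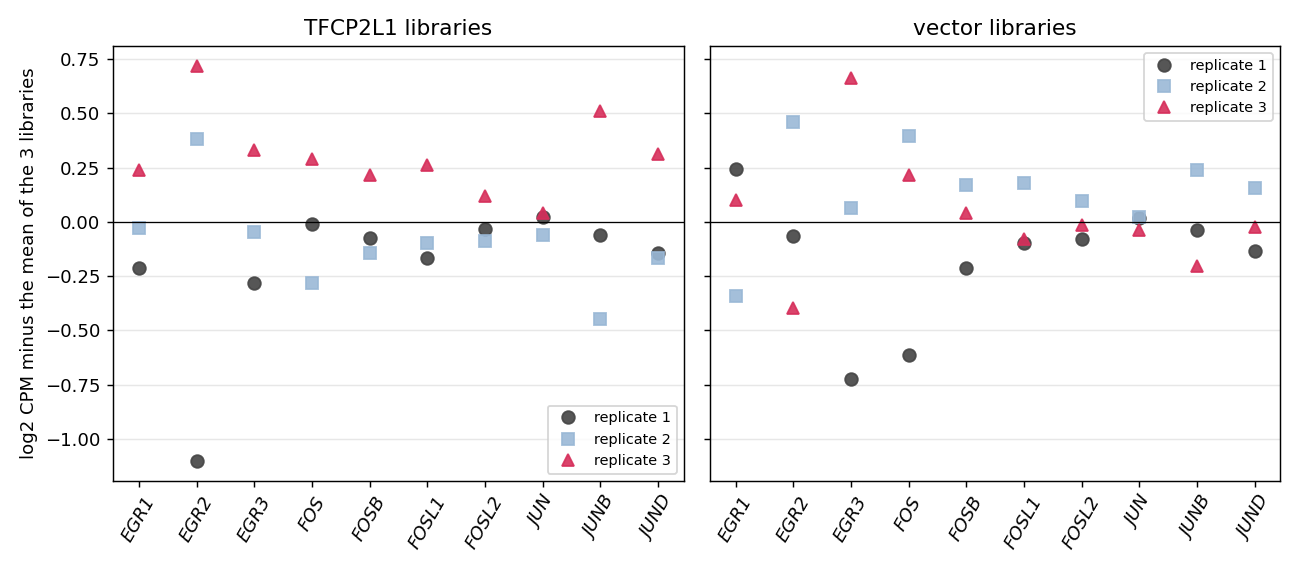
Log2 CPM of each factor minus the mean of its 3 libraries, TFCP2L1 libraries on the left and vector libraries on the right; each symbol is 1 library. TFCP2L1 replicate 3 lies on top for 10 of 10 factors and vector replicate 2 for 8 of 10.

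Levels of different genes were compared per length, as the deposited FPKM. In TFCP2L1 cells the order was FOSL1 (290 ± 46.3 FPKM), JUN (81.5 ± 3.32), FOSL2 (43.8 ± 3.14), JUNB (34.6 ± 11.6), JUND (27.6 ± 5.22), FOSB (7.54 ± 1.0), EGR1 (4.89 ± 0.738), FOS (2.88 ± 0.565), EGR2 (0.340 ± 0.180) and EGR3 (0.134 ± 0.0282; SD, n = 3). In vector cells it was FOSL1 (215 ± 22.6 FPKM), JUN (80.8 ± 1.48), FOSL2 (50.1 ± 2.91), JUNB (34.6 ± 5.25), JUND (33.9 ± 3.37), FOSB (5.77 ± 0.745), FOS (1.91 ± 0.629), EGR1 (1.32 ± 0.269), EGR2 (0.224 ± 0.0675) and EGR3 (0.0985 ± 0.0449; SD, n = 3). The EGR1 to FOS ratio of FPKM was 1.48, 2.04 and 1.65 in TFCP2L1 libraries and 1.28, 0.424 and 0.651 in vector libraries (exact two-sided permutation p = 0.1). Neighbours whose libraries overlapped were JUNB with JUND in both groups, JUNB with FOSL2 in TFCP2L1 cells, EGR2 with EGR3 in TFCP2L1 cells, and FOS with EGR1 in vector cells. FOSL1 ranked 152 in TFCP2L1 cells and 205 in vector cells by FPKM among the 21173 genes, and EGR1 ranked 7425 in TFCP2L1 cells and 10491 in vector cells. These levels rest on the gene lengths the authors used, 2104 bases for FOS and 8787 for FOSL2, where the exons in GENCODE v29 cover 3238 and 7157 bases. With exon bases as lengths, chosen after seeing the data, EGR1 was above FOS in both groups, at 4.89 against 1.87 in TFCP2L1 cells and 1.32 against 1.24 in vector cells. JUND then stood above JUNB in vector cells, at 35.1 against 34.8, and the rest of the order was as with the deposited FPKM.

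Within the FOS family, FOSL1 took a larger share of the summed FPKM in TFCP2L1 cells. It held 83.0%, 84.3% and 85.3% in TFCP2L1 libraries, against 78.9%, 79.5% and 77.9% in vector libraries, and FOSL2 held 13.8%, 12.9% and 11.7% in TFCP2L1 libraries, against 18.6%, 17.5% and 19.1%. Neither share overlapped between groups (exact two-sided permutation p = 0.1 for each). The FOSL1 to FOSL2 ratio averaged 6.60 ± 0.642 in TFCP2L1 cells and 4.28 ± 0.227 in vector cells (SD, n = 3 each; exact permutation p = 0.1). FOS held under 1% of the family in each library, 0.834% ± 0.0928 in TFCP2L1 cells and 0.695% ± 0.193 in vector cells (SD, n = 3 each). The family's sum was 313, 318 and 403 FPKM in TFCP2L1 libraries and 254, 303 and 261 FPKM in vector libraries, also without overlap.

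In the JUN family the sum was 144 ± 19.1 FPKM in TFCP2L1 cells and 149 ± 8.83 FPKM in vector cells, with overlap (SD, n = 3 each; exact permutation p = 0.700). JUN held 57.2% ± 5.69 of it in TFCP2L1 cells and 54.2% ± 2.65 in vector cells, and JUND 19.1% ± 1.39 in TFCP2L1 cells and 22.7% ± 1.40 in vector cells. The JUND shares did not overlap between groups (exact permutation p = 0.1), while those of JUN and JUNB did. In the EGR family the sum was 4.48, 5.27 and 6.34 FPKM in TFCP2L1 libraries and 1.80, 1.41 and 1.71 FPKM in vector libraries. EGR1 held 91.4% ± 2.60 of that sum in TFCP2L1 cells and 79.7% ± 6.84 in vector cells (SD, n = 3 each; exact permutation p = 0.1). Because a family's shares add up to a whole, a larger share of 1 gene fixes smaller shares of the rest.

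**Figure D4:**
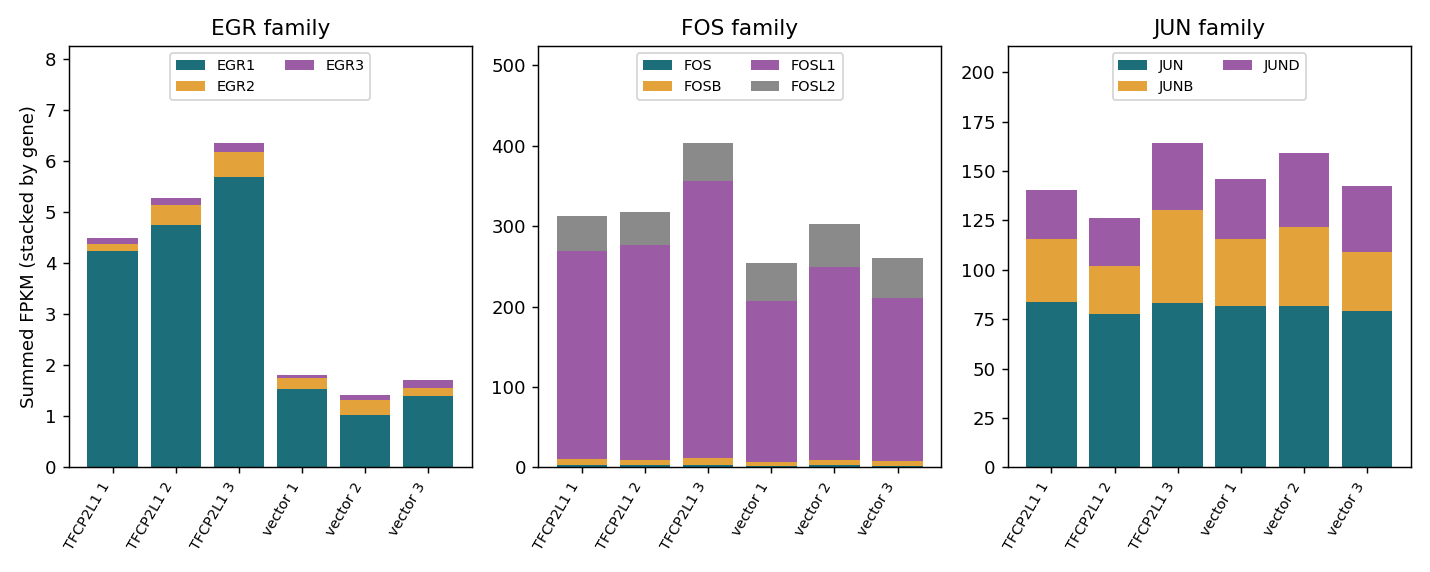
Summed deposited FPKM of the EGR, FOS and JUN families in each library, stacked by gene, with the 3 TFCP2L1 libraries left of the 3 vector libraries in each panel and separate linear axes from 0. FOSL1 makes up 77.9% to 85.3% of the FOS family, and the EGR sums are 4.48 to 6.34 FPKM in TFCP2L1 libraries and 1.41 to 1.80 FPKM in vector libraries.

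The 3 genes with the profile most like that of EGR1 over the 6 libraries, by the root mean square difference of mean-centred log2 CPM among 11694 genes with a mean of at least 2 CPM, were SULT1C2, PDE2A and IL13RA2. The cytosolic sulfotransferase gene SULT1C2 differed from EGR1 by 0.2 and was at 23.9 ± 1.37 CPM in TFCP2L1 cells and 5.33 ± 0.628 CPM in vector cells (SD, n = 3 each). The cyclic nucleotide phosphodiesterase gene PDE2A differed by 0.235 and was at 39.5 ± 0.578 CPM in TFCP2L1 cells and 9.24 ± 0.735 CPM in vector cells. IL13RA2, a decoy receptor of interleukin 13, also differed by 0.235 and was at 39.3 ± 2.02 CPM in TFCP2L1 cells and 13.8 ± 1.42 CPM in vector cells. In none of the 3 was TFCP2L1 replicate 3 the highest library, as it was for EGR1.

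The signalling genes that act before the 10 factors gave counts near those of all tested genes, of which 4.63% were higher and 6.94% lower. Of 21 tested genes from RET to ERK and its RSK and MSK kinases, 0 were higher and 1 was lower, with log2 fold changes of -0.49 to 0.26 and a median of 0.02. The gene called was RPS6KA2, an RSK kinase, at 17.1 ± 1.20 CPM in TFCP2L1 cells and 24.1 ± 2.64 CPM in vector cells (SD, n = 3 each; edgeR adjusted p = 0.00819, and 0.0539 and 0.0652 without vector replicate 1 or 3). RET was at 48.0 ± 2.34 CPM in TFCP2L1 cells and 51.3 ± 1.13 CPM in vector cells. Of 6 tested genes for SRF, its cofactors and ternary complex factors, 0 were called, and the smallest p was that of ELK4, at -0.14 with an edgeR adjusted p of 0.338. Of 15 tested genes of the JNK and p38 cascades 1 was called, MAP3K1, lower at 33.8 ± 4.59 CPM in TFCP2L1 cells and 44.8 ± 1.54 CPM in vector cells (edgeR adjusted p = 0.0141, and 0.0543 to 0.0864 without TFCP2L1 replicate 1 or vector replicate 1 or 3). MAP3K1 did not pass in 6 of 17 alternatives, the limma fits on log2 FPKM and the replicate block among them. Transcript levels do not measure the phosphorylation through which these kinases act.

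NAB1 and NAB2, corepressors that bind EGR proteins, were not called. NAB1 was at 33.3 ± 4.45 CPM in TFCP2L1 cells and 41.8 ± 3.18 CPM in vector cells (SD, n = 3 each), with an edgeR adjusted p of 0.0552. Of 10 tested bZIP partners of AP-1, 1 rose and 1 fell, against 4.63% and 6.94% of all tested genes. BATF2, named after its values were seen, had a log2 fold change of 1.88 that did not pass (edgeR adjusted p = 0.0515). CREB5, a CRE-binding factor that can pair with JUN, had 36.8, 39.6 and 42.8 CPM in TFCP2L1 libraries and 18.4, 26.7 and 22.1 CPM in vector libraries, a log2 fold change of 0.83 ± 0.12 (SE) with an edgeR adjusted p of 0.000252. MAFG, a small MAF protein without an activation domain, was at 85.3 ± 8.16 CPM in TFCP2L1 cells and 108 ± 2.78 CPM in vector cells. Its edgeR adjusted p was 0.0124, and 0.0733 and 0.0620 without vector replicate 1 or 3. MAFG did not pass in 4 of 17 alternatives, the limma fits on log2 FPKM among them.

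Of 26 other immediate early genes tested, 1 rose and 5 fell, with a median log2 fold change of -0.11, against 4.63% higher and 6.94% lower over all tested genes. CCN1, a matricellular protein gene, fell to 158 ± 6.56 CPM in TFCP2L1 cells, against 241 ± 6.26 CPM in vector cells (SD, n = 3 each; edgeR adjusted p = 2.68e-05). DUSP1, the phosphatase that switches off JNK and p38, fell to 40.9 ± 5.79 CPM in TFCP2L1 cells, against 60.4 ± 4.50 CPM in vector cells. IER5 fell to 58.8 ± 6.67 CPM in TFCP2L1 cells, against 82.2 ± 5.66 CPM in vector cells, and the edgeR adjusted p of these 3 genes was at most 0.00220. The kinase gene SGK1 had a log2 fold change of -0.77 (edgeR adjusted p = 0.0439) and did not pass in 9 of 17 alternatives. IER2, the gene that rose, and KLF4, the fifth that fell, were named after their values were seen, with log2 fold changes of 0.39 and -0.29.

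**Figure D5:**
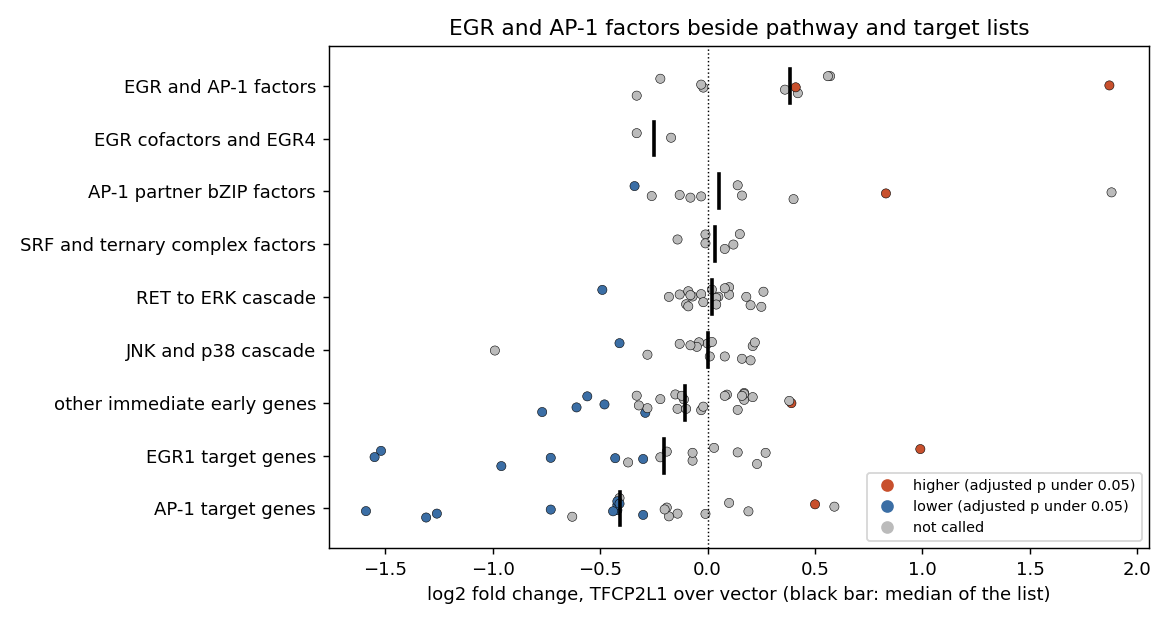
Log2 fold change, TFCP2L1 over vector, of the 10 factors and of each tested gene in 8 lists; orange marks genes called higher, blue genes called lower, grey genes not called, and black bars the median of each list. The median is 0.38 for the EGR and AP-1 factors, -0.11 for other immediate early genes and -0.41 for AP-1 target genes.

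The lists of target genes hold genes known from other systems as targets of EGR1 or of AP-1. Of 16 tested EGR1 target genes, 1 rose and 6 fell, against 4.63% higher and 6.94% lower over all tested genes, and the median log2 fold change was -0.20, against 0.00. THBS1, the matrix protein gene that rose, was at 37.3 ± 4.34 CPM in TFCP2L1 cells and 18.8 ± 1.29 CPM in vector cells (SD, n = 3 each; edgeR adjusted p = 1.12e-05). The prostaglandin E synthase gene PTGES fell to 1.3 ± 0.0870 CPM in TFCP2L1 cells, against 3.80 ± 1.15 CPM in vector cells. The fibronectin gene FN1 fell to 10285 ± 678 CPM in TFCP2L1 cells, against 20008 ± 846 CPM in vector cells. The growth factor gene PDGFB was at 0.602 ± 0.345 CPM in TFCP2L1 cells and 1.73 ± 0.216 CPM in vector cells. Its edgeR adjusted p was 0.0321, and 0.0873 to 0.122 without TFCP2L1 replicate 1 or vector replicate 1 or 3. PDGFB did not pass in 4 of 17 alternatives, the replicate block among them.

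Of 21 tested AP-1 target genes, 1 rose and 10 fell, against the same 4.63% and 6.94% of all tested genes, with a median log2 fold change of -0.41. IL6, an inflammatory cytokine gene, had 92.4, 92.8 and 132 CPM in TFCP2L1 libraries and 293, 385 and 278 CPM in vector libraries (edgeR adjusted p = 0.00142). The genes AC073072.1 and STEAP1B on the opposite strand together share 20.7% of the exon bases of IL6. The neutrophil chemokine gene CXCL8 fell to 264 ± 16.8 CPM in TFCP2L1 cells, against 653 ± 33.4 CPM in vector cells (SD, n = 3 each). The EGF receptor ligand gene EREG fell to 23.3 ± 3.10 CPM in TFCP2L1 cells, against 55.7 ± 1.87 CPM in vector cells. The inducible cyclooxygenase gene PTGS2 fell to 72.3 ± 6.25 CPM in TFCP2L1 cells, against 120 ± 4.41 CPM in vector cells, and the edgeR adjusted p of CXCL8, EREG and PTGS2 was at most 1.35e-05. HMGA1, the gene that rose, was named after its values were seen, with a log2 fold change of 0.50. Several AP-1 target genes are also known NF-kB targets, CD44 and VEGFA are in both target lists, and the 2 lists were chosen with earlier results of these data known.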

How the data were processed

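TRIzol was used for RNA and a VAHTS Universal V6 kit for the libraries, per the labels' protocols. Tools named in the submitters' processing notes are fastp, HISAT2 and HTSeq, no version given, with the build GRCh38.p13. No source used here says whether counting used strand. The authors deposited raw read counts per gene and FPKM for the same 21173 genes. Counts, FPKM and library totals gave 1 length per gene within 0.000115%, so the deposited FPKM are a rescaling of the counts and no second measurement.

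Counts were filtered by filterByExpr (14431 genes kept), scaled by TMM and compared, TFCP2L1 over vector, with edgeR 4.0.16 (R 4.3.3): quasi-likelihood F-test, robust, two-sided, Benjamini-Hochberg over all tested genes, threshold 0.05, 6 libraries in 1 fit. The SE is the log2 fold change over the square root of F, and intervals are 95% for each gene, unadjusted. The common dispersion was 0.0116. Shares and ratios of FPKM were compared by exact two-sided permutation tests, which cannot go below 0.1 here. Alternatives used other scalings and filters, DESeq2 1.42.0, limma 3.58.1 (voom, and log2 FPKM with pseudocounts of 1 and 0.1), a replicate block and leaving out libraries. Replicate libraries differed by more than sampling noise (chi-square per gene of 7.49 to 42.4).

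Factors and lists were chosen with earlier results of these data known. Named from each list were up to 4 called genes with the largest change, or the gene with the smallest p where none was called, and the 3 genes most like each factor called with an absolute log2 fold change of at least 1. Positions and overlaps are from GENCODE v29 on GRCh38.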

Additional observations from a re-analysis of the deposited data

How the results depend on the processing

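Of 361 alternative values of the main results, 322 kept their direction and their side of the threshold or stayed within 1.5 times. EGR1, CREB5, CCN1, DUSP1, IER5, THBS1, FN1, PTGES, IL6, CXCL8, EREG and PTGS2 were called under each of 17 alternatives. JUN, JUNB and ELK4 were called under none of the 17, and EGR2 and EGR3 under none of the 16 that tested them. For the changes below the cause was not tested. Fits that leave libraries out also rest on a smaller number of them, and the part of that was not tested either.

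Without a filter on low counts, 4 factors were higher and 1 was lower: FOS (0.57), FOSB (0.36) and JUND (-0.32) passed. That fit also gave far smaller edgeR adjusted p for EGR1 (1.39e-30) and FOSL1 (2.71e-05), at log2 fold changes of 1.87 and 0.41. FOSB passed in DESeq2 (0.36). With limma on FPKM at pseudocounts of 1 and 0.1, 1 factor was called, and FOSL1 did not pass (0.43 in each; adjusted p = 0.0803 and 0.0748). JUN turned to 0.01 in both and under library totals alone. With TFCP2L1 replicate 3 and vector replicate 2 both left out, added after seeing the data, 1 factor, JUND (-0.41), was lower.

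Same-numbered libraries did not deviate together (r of 0.07, -0.16 and -0.12 over tested genes). The labels state no pairing, and deviations from means of 3 libraries cannot decide whether numbers pair them. With a replicate block, 328 genes were higher and 649 lower over all tested genes, 1 factor was higher, 15 genes of the lists were lower, and FOSL1 was at 0.40 (edgeR adjusted p = 0.0736).

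Leaving out each library in turn gave 298 to 766 genes higher and 621 to 1106 lower, 1 to 3 factors higher and 0 to 2 lower, and 3 to 7 list genes higher and 14 to 28 lower, against 668, 1002, 2, 0, 4 and 23 with all libraries. The log2 fold changes ran from 1.72 to 1.99 for EGR1, 0.26 to 0.50 for FOSL1, 0.24 to 0.45 for FOSB, -0.28 to -0.17 for FOSL2, -0.50 to -0.24 for JUND, -0.04 to 0.02 for JUN and -0.32 to 0.17 for JUNB. FOSB passed without TFCP2L1 replicate 2 or vector replicate 2 (0.43 and 0.45). JUN turned to 0.02 without TFCP2L1 replicate 2, and JUNB to 0.03, 0.17 and 0.10 without TFCP2L1 replicate 1, TFCP2L1 replicate 2 and vector replicate 2. EGR2 and EGR3 had 11 to 59 reads in a library, and the part of depth in their wide intervals was not tested. With GENCODE exon bases as gene lengths, the mean EGR1 to FOS ratio was 2.65 in TFCP2L1 cells and 1.21 in vector cells, against 1.72 and 0.785 with the deposited FPKM.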
